A study of Mus musculus with 7 samples.

Results

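LRRC15 and 9 other markers of fibroblast states were followed in mouse tumours treated with anti-LAIR1 plus anti-PD-1, against tumours treated with a control antibody plus anti-PD-1. The genes were taken from a list of symbols, all of which were found, so that they make up 10 of the 24421 genes in the deposited table. They fall into 5 genes used as markers of matrix-producing fibroblasts (Lrrc15, Fap, Postn, Cthrc1 and Pdpn) and 5 used for fibroblasts of resting tissue or for fibroblasts in general (Pdgfra, Pi16, Dpt, Cd34 and Dpp4). Polyadenylated RNA of 7 whole mouse tumours was sequenced, 1 tumour from each separately named mouse. In 4 mice anti-LAIR1, directed at an inhibitory leukocyte receptor whose ligand is collagen, was combined with anti-PD-1, and in 3 control mice anti-KLH, an antibody against keyhole limpet haemocyanin, was combined with anti-PD-1. All 7 tumours carry the label week 4, and PD-1 blockade was common to all 7 mice. No tumour of a mouse without anti-PD-1 was analysed here.

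The series text describes 2 kinds of tumour, and the labels do not say which of them gave these libraries. In one, the line 344SQ, a single lung cancer line from K-rasLA1/+p53R172H∆g/+ mice, was placed under the skin of 129/Sv mice aged 6 to 8 weeks, the dose being 10 mg/kg for anti-LAIR and 8 mg/kg for anti-PD-1. In the other, KrasLSL-G12D/p53fl/fl mice received adenovirus carrying Cre into the airways at 3 to 4 months of age, so that only infected lung cells could recombine, and were treated 2 months later. The mouse names begin with WTSV in all anti-LAIR1 tumours and with LOHM or KWM in the controls; the labels do not explain the prefixes, which cannot be told apart from the treatment. Total counts were 11480651 to 15347403 in the anti-LAIR1 libraries and 9879762 to 26255727 in the control libraries. Levels are CPM, counts scaled to a common library size with TMM, on which 3 counts were worth from 0.119 to 0.305 CPM, a floor for counting error only. Epithelial RNA was present in all libraries, the 10 epithelial markers summing to 4301 to 5344 CPM under anti-LAIR1, against 4331 to 5135 CPM in control tumours.

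Fibroblasts of resting tissue keep a sparse matrix, and a population carrying Pi16, Dpt and Cd34 is found in the connective tissue around vessels of many mouse organs. In tumours, transforming growth factor beta (TGF-beta) drives fibroblasts towards a contractile state that deposits collagen, and the membrane protein LRRC15 marks the far end of that path in mouse and human carcinomas. Because collagen is the ligand of LAIR1, the cells that make it stand on the other side of the blocked interaction. In whole tumours, fewer cells of a type and less RNA per cell cannot be told apart, and several of these genes are also used by tumour cells, endothelium or lymphocytes.

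The promoters of 4 members are shown because these genes gave the main patterns described here: Lrrc15 differed most clearly between the groups, Postn was the most abundant member, and Dpt and Pi16 shared a maximum in a single tumour. The windows run 5′ to 3′ on the strand of the gene, from 250 bases before to 50 bases after the RefSeq start site in build GRCm38.p6. They lie at chr16:30283205-30283504 on the minus strand for Lrrc15, and on the plus strand at chr3:54360857-54361156 for Postn, chr1:164796413-164796712 for Dpt and chr17:29318632-29318931 for Pi16. Capitals mark matches, on either strand, to 6 motifs: a TATA box (TATAAA), a SMAD element (CAGACA), an AP-1 element (TGANTCA), a TEAD element (GGAATG), a GC box (GGGCGG) and an E-box (CAGCTG).
Lrrc15: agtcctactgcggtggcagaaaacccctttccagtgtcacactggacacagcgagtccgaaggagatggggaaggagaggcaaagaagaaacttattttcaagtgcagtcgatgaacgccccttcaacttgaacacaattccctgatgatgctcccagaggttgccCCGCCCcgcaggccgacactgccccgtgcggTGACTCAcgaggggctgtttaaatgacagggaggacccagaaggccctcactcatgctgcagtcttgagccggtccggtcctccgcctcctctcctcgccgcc
Postn: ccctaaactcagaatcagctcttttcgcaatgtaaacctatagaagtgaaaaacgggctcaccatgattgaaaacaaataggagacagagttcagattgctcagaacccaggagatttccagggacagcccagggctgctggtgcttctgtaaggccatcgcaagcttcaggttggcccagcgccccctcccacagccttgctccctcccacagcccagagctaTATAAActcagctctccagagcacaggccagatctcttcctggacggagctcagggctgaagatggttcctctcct
Dpt: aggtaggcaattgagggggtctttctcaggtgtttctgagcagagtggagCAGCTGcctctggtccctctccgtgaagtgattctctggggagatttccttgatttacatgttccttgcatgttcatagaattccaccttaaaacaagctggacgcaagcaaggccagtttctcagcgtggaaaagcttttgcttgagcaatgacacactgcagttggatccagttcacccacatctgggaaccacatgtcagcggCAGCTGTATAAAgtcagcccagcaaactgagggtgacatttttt
Pi16: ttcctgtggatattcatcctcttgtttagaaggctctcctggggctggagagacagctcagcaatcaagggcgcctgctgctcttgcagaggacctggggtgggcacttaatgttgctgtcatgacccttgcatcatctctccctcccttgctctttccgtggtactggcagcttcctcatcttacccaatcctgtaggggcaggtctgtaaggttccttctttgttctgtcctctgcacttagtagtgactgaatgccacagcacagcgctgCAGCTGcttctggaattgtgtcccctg
The Lrrc15 window held 1 AP-1 element, starting 53 bases before the start site, and 1 GC box, 84 bases before it, and no TATA box. Among 32817 mouse promoter windows of the same length, 7.81% held the AP-1 element and 35.6% the GC box. Postn had a TATA box 26 bases before its start, a motif held by 13.6% of windows. A second Postn window, beginning at chr3:54359017 and not shown, held none of the 6 motifs. Dpt had 2 E-boxes, the later of them touching a TATA box 12 bases after the start. Pi16 had 1 E-box 23 bases after its start, while 16.3% of all windows held that motif. The Pi16 window lies inside the gene as GENCODE places it, 29317680 to 29330593, and not before that start. The TEAD element occurred in 14.7% of all windows and in the Dpp4 window among the members. The SMAD element occurred in 21.0% of all windows and in none of the 9 windows of the 8 members in the table, which says only that these letters are not there.

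None of the 10 members passed the test between anti-LAIR1 and control tumours (edgeR quasi-likelihood, adjusted p over 13545 genes), and Lrrc15 came closest. It was lower with anti-LAIR1, with a fold of 0.57, and it was the 1 member whose groups did not overlap. The other 4 matrix-producing members lay on both sides of 0 with log2 fold changes from -0.14 to 0.23. All 5 steady-state members had higher estimates with anti-LAIR1, from 0.08 to 1.09, each with overlapping groups. All 10 members passed the filter on low counts. The test called 0 of the 13545 genes (0.00%) and 0 members; at an unadjusted p under 0.05 it gave 1 member, Lrrc15, on the lower side, where 1.63% of all genes tested lay. The same threshold was passed on the higher side by 3.51% and on either side by 5.15% of genes. DESeq2 called 0 members while calling 0.388% of its genes, and limma-voom called 0 members and 0.00% of genes. Groups did not overlap, on the lower side, for 2.51% of all genes tested, on the higher side for 3.06% and on either side for 5.57%. Estimates above 0 were given by 49.1% of all genes, beside the 5 of 5 steady-state members.

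LRRC15 is a leucine-rich repeat membrane protein induced by TGF-beta on activated fibroblasts (gene on chromosome 16, 30269302 to 30283256, minus strand, GRCm38). The Lrrc15 level was 41.9, 32.5, 40.9 and 20.9 CPM in anti-LAIR1 replicates 1 to 4, against 50.4, 61.4 and 67.6 CPM in control replicates 1 to 3. Every anti-LAIR1 tumour lay below every control tumour, and anti-LAIR1 replicate 4 lay furthest down. These levels rested on 288 to 636 reads in anti-LAIR1 libraries and on 664 to 1273 reads in control libraries. Mean levels were 34.0 ± 9.72 CPM under anti-LAIR1, against 59.8 ± 8.71 CPM in control tumours (SD, n = 4 and 3). The estimated log2 fold change was -0.81, SE 0.23 (edgeR adjusted p = 0.753), and DESeq2 gave an adjusted p of 0.0686. An exact two-sided permutation test of the log2 CPM gave p = 0.0286, the smallest that the 35 splits of 4 against 3 allow; the exact tests of the other members were made in the same way. By its edgeR p Lrrc15 ranked at 113 among the 13545 genes, and by its fold change it was the gene at place 78 counted from the lowest.

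Lrrc15 was also set against a list of 16 genes expressed by fibroblasts of most states. Of these, 7 had higher and 9 lower estimates with 0 called, from -0.42 for Col5a1, a chain of type V collagen, to 0.36 for Lum, the matrix proteoglycan lumican. Their mean log2 CPM differed by -0.03 between the groups. Relative to that list, Lrrc15 stood at -2.02 ± 0.25 with anti-LAIR1 and -1.20 ± 0.10 in controls (log2 units, SD, n = 4 and 3), a difference of -0.82 with no overlap. Set against Pdgfrb alone, a receptor of platelet-derived growth factor on fibroblasts and pericytes, the difference was -0.88, also without overlap. With the list's level as a covariate the Lrrc15 log2 fold change was -0.79 (edgeR adjusted p = 0.260).

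**Figure D1:**
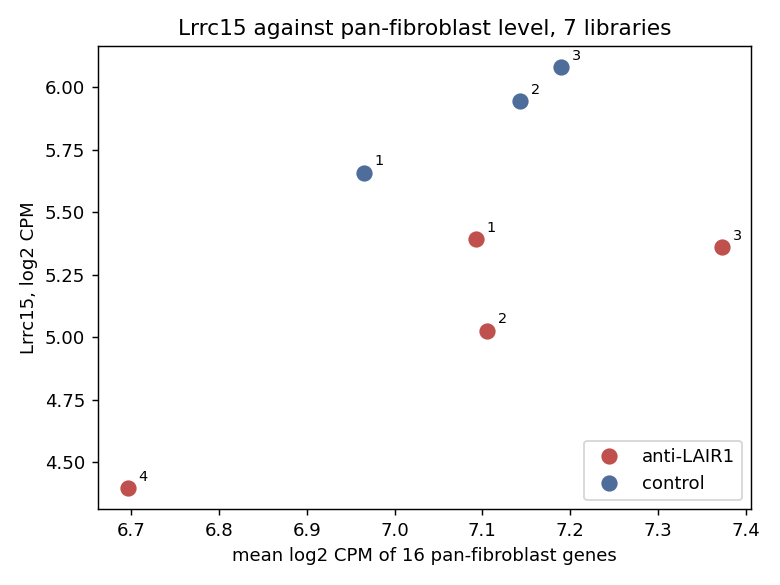
Lrrc15 level (log2 CPM, vertical axis) against the mean log2 CPM of 16 pan-fibroblast genes (horizontal axis) in 7 tumours, numbered by replicate. The 4 anti-LAIR1 tumours lie below the 3 controls in Lrrc15, while their pan-fibroblast levels spread around those of the controls, with anti-LAIR1 replicate 4 lowest on both axes.

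Against single matrix genes the picture was graded. The log2 ratio of Lrrc15 to Postn was -3.50 ± 0.24 with anti-LAIR1 and -2.81 ± 0.23 in controls, and the groups did not overlap. The ratio to Fap differed by -1.10 and that to Pdgfra by -0.91, each without overlap. Against collagen genes that were themselves lower the groups overlapped: the ratio differed by -0.51 for Col1a1, a chain of type I collagen, and by -0.26 for Col12a1, a fibril-associated collagen. These ratios were chosen after the values were seen and are a description with no test.

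Marker levels of other cell types were summed in the same libraries, and edgeR called 0 genes of any marker list. DESeq2 called 2 skeletal muscle, 1 macrophage and 1 pericyte marker, where it called 0.388% of all its genes. The pericyte marker was Des, at 4.74, 0.931, 3.37 and 3.41 CPM in anti-LAIR1 replicates 1 to 4, against 0.509 to 0.598 CPM in controls. Among anti-LAIR1 libraries it was lowest in replicate 2, as the summed muscle markers were. Summed skeletal muscle markers (12 genes) reached 120, 11.97, 86.4 and 115 CPM in anti-LAIR1 replicates 1 to 4, against 8.59 to 9.47 CPM in controls. Most of the anti-LAIR1 sums was Ttn, the gene of the sarcomere protein titin. Ttn stood at 94.6, 8.12, 61.6 and 89.1 CPM in anti-LAIR1 replicates 1 to 4, against 2.97 to 5.54 CPM in controls. Of the 12 genes, 7 did not pass the filter, and of the 5 tested Pygm, the glycogen phosphorylase of muscle, had a lower estimate. With the muscle level as a covariate the Lrrc15 estimate was -0.81, SE 0.39 (edgeR adjusted p = 1.00), and its unadjusted p was no longer under 0.05. The same covariate moved Pi16 to 2.05 and Dpt to 1.35, both then at an unadjusted p under 0.05, against 1.09 and 0.32 without it. It moved Dpp4 to 0.24 and Postn to -0.47, against 0.83 and -0.11, and Des to 0.83, against 2.51. The mean log2 CPM of the muscle markers was 0.67, -1.30, 0.58 and 0.81 in anti-LAIR1 replicates 1 to 4, against -1.23, -1.27 and -1.38 in controls. Only anti-LAIR1 replicate 2 lay within the control range. Estimates with this covariate therefore rest largely on that 1 tumour and cannot separate muscle level from treatment. Macrophage markers (8 genes, all 8 higher) summed to 317 to 459 CPM under anti-LAIR1, against 254 to 313 CPM in control tumours, and their part in the Lrrc15 level was not tested. Lung epithelial markers (6 genes) summed to 3317 CPM in anti-LAIR1 replicate 4, against 1232 to 1741 CPM in the other anti-LAIR1 libraries and 1380 to 1676 CPM in controls. Sftpb, which encodes a surfactant protein, made up 3103 CPM of that sum, and 3 of the 4 tested genes of the list had lower estimates. That replicate also had the lowest level of 5 members. Without it the Lrrc15 log2 fold change was -0.64 (edgeR adjusted p = 0.742).

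**Figure D2:**
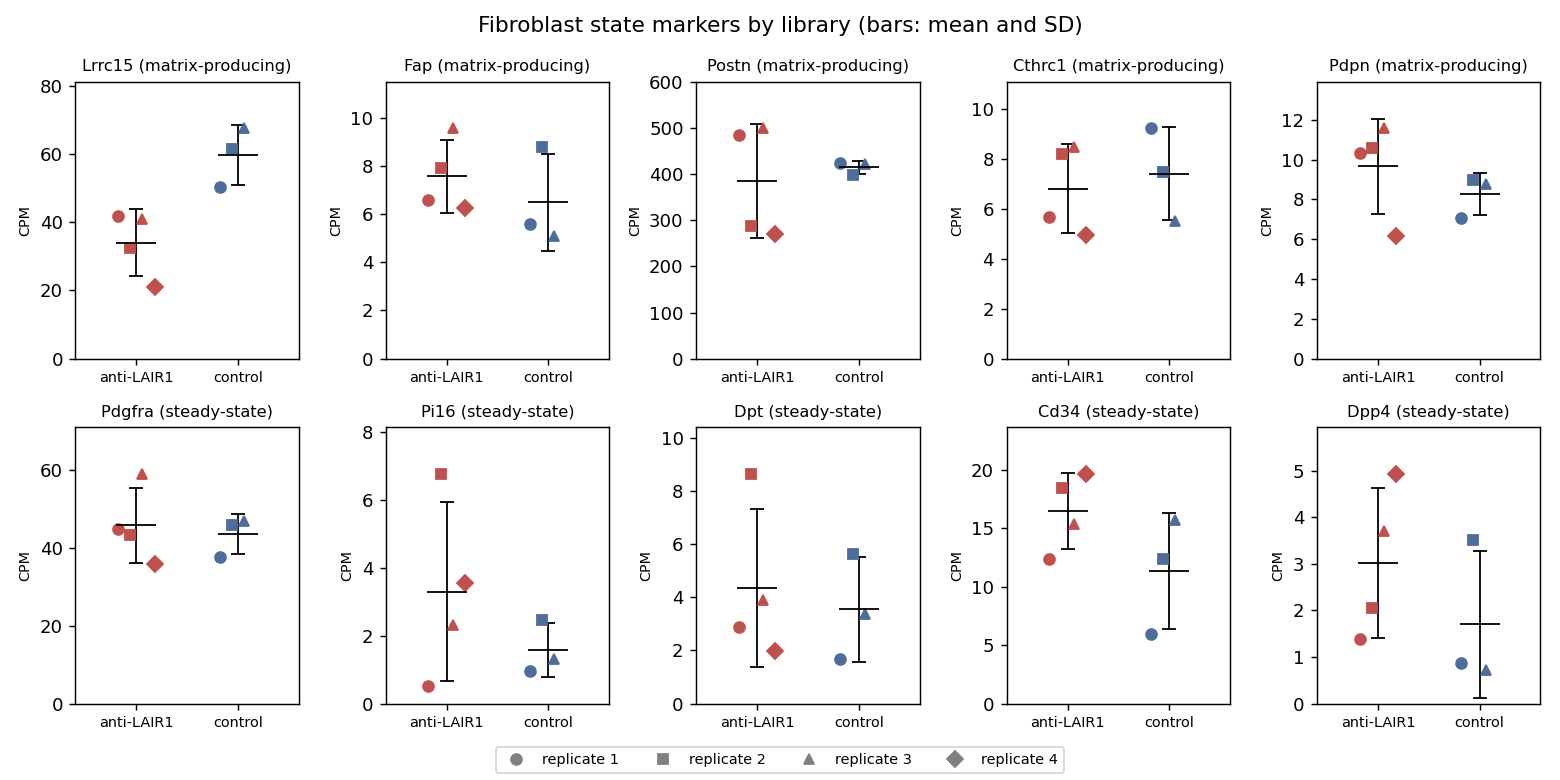
CPM of the 10 members in each tumour, 4 anti-LAIR1 (red) left of 3 control (blue), with replicates by symbol and bars for mean and SD; each panel has its own axis from 0. Lrrc15 is the panel without overlap, at 20.9 to 41.9 CPM under anti-LAIR1, against 50.4 to 67.6 CPM in control tumours.

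Among secreted matrix markers, Postn encodes periostin, a protein that binds collagen and integrins in remodelled tissue (chromosome 3, 54361109 to 54391037, plus strand). Postn stood at 486, 288, 500 and 271 CPM in anti-LAIR1 replicates 1 to 4, against 425, 399 and 423 CPM in control replicates 1 to 3. The anti-LAIR1 tumours formed a high pair and a low pair around tightly grouped controls, their highest value being 1.84 times the lowest against 1.07 times in controls. The estimate was -0.11 on the log2 scale, SE 0.23 (exact permutation p = 0.543), and 2 SEs either side gave -0.56 to 0.35. It turned to 0.01 and 0.03 without anti-LAIR1 replicate 2 and replicate 4, the low pair.

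Cthrc1, a secreted protein with a collagen triple helix repeat that marks collagen-rich fibroblasts of scarred mouse tissue (chromosome 15, 39076932 to 39087121), had fewer reads. Its level was 5.66, 8.18, 8.46 and 4.94 CPM in anti-LAIR1 replicates 1 to 4, against 9.22, 7.48 and 5.50 CPM in control replicates 1 to 3. The groups overlapped over most of their range (log2 fold change -0.14, SE 0.26, exact permutation p = 0.714). The estimate turned to 0.06 without control replicate 1 and to 0.14 with the muscle covariate.

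Fap and Dpp4 encode related serine proteases of the cell surface, FAP on activated fibroblasts and DPP4 on lymphocytes, epithelium and resting fibroblasts, and lie 88.7 kb apart on chromosome 2 (Fap at 62500943 to 62574075 and Dpp4 at 62330073 to 62412231, both on the minus strand). Fap stood at 6.58, 7.92, 9.58 and 6.25 CPM in anti-LAIR1 replicates 1 to 4, against 5.62, 8.83 and 5.09 CPM in control replicates 1 to 3. Dpp4 stood at 1.38, 2.06, 3.71 and 4.94 CPM in anti-LAIR1 replicates 1 to 4, against 0.871, 3.52 and 0.713 CPM in control replicates 1 to 3. Control replicate 2 was the highest control for both genes. The Fap log2 fold change was 0.22, SE 0.25 (exact permutation p = 0.400), and that of Dpp4 was 0.83, SE 0.64 (exact permutation p = 0.229). The Fap estimate ran from 0.07 without control replicate 3 to 0.49 without control replicate 2, and was 0.09 without anti-LAIR1 replicate 3 and 0.10 without control replicate 1. The Dpp4 values rested on 21 to 68 reads with anti-LAIR1 and on 7 to 47 reads in controls, and leaving out anti-LAIR1 replicate 4 gave an estimate of 0.48. Leaving out control replicates 1, 2 and 3 in turn gave 0.46, 1.89 and 0.50, the second of these at an unadjusted p under 0.05. Leaving out replicate 2, the highest control, widens the Dpp4 difference by choice. T cell markers (8 genes), a class of cell that also carries DPP4, summed to 34.4, 13.5, 6.56 and 30.0 CPM in anti-LAIR1 replicates 1 to 4, against 13.9, 3.67 and 4.68 CPM in control replicates 1 to 3, and their part in the Dpp4 level was not tested. Antisense genes are annotated across Dpp4, Cd34, Dpt, Pi16 and Pdgfra, and whether the counting separated strands is not stated, so reads of these partners may be included.

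Pdpn encodes podoplanin, a mucin-like protein of fibroblasts, lymphatic endothelium and some tumour cells that binds the platelet receptor CLEC-2 (chromosome 4, 143267431 to 143299564). Pdpn stood at 10.3, 10.6, 11.6 and 6.18 CPM in anti-LAIR1 replicates 1 to 4, against 7.09, 8.98 and 8.75 CPM in control replicates 1 to 3. Anti-LAIR1 replicates 1, 2 and 3 exceeded every control and replicate 4 lay below all of them (log2 fold change 0.23, SE 0.23, exact permutation p = 0.429). The estimate was 0.13 without anti-LAIR1 replicate 3 and 0.39 without anti-LAIR1 replicate 4, the latter at an unadjusted p under 0.05. Leaving out replicate 4, the lowest tumour, widens the difference by choice. Leaving out control replicate 1 gave 0.12. Of the 6 lymphatic endothelial markers, 2 passed the filter and 1, Ccl21a, had no read in any library.

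Pdgfra, a receptor of platelet-derived growth factor carried by most fibroblasts (chromosome 5, 75152292 to 75198215), was the steadiest member. Its level was 44.8, 43.4, 59.1 and 35.9 CPM in anti-LAIR1 replicates 1 to 4, against 37.6, 45.9 and 47.0 CPM in control replicates 1 to 3. The estimate was 0.08 on the log2 scale, SE 0.16 (exact permutation p = 0.914), with 2 SEs either side giving -0.25 to 0.40. It turned to -0.07 without anti-LAIR1 replicate 3 and to -0.03 without control replicate 1. Pdgfa, which encodes a ligand of this receptor, averaged 21.2 ± 5.33 CPM with anti-LAIR1, against 20.2 ± 3.44 CPM in control tumours (SD, n = 4 and 3).

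Pi16 and Dpt, markers of the resting fibroblast population, varied widely within groups. Pi16, a peptidase inhibitor-like membrane protein (chromosome 17, 29317680 to 29330593), stood at 0.527, 6.78, 2.33 and 3.56 CPM in anti-LAIR1 replicates 1 to 4, against 0.950, 2.47 and 1.32 CPM in control replicates 1 to 3. Dpt, which encodes the matrix protein dermatopontin (chromosome 1, 164796644 to 164824266), stood at 2.90, 8.65, 3.89 and 1.96 CPM in anti-LAIR1 replicates 1 to 4, against 1.66, 5.61 and 3.36 CPM in control replicates 1 to 3. Both genes were highest in anti-LAIR1 replicate 2 and, among controls, in replicate 2. The highest anti-LAIR1 value was 12.9 times the lowest for Pi16 and 4.41 times for Dpt, and Pi16 counts went down to 8 reads. The Pi16 log2 fold change was 1.09, SE 0.73 (exact permutation p = 0.486), and that of Dpt was 0.32, SE 0.57 (exact permutation p = 0.743).

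Anti-LAIR1 replicate 2 was also the tumour with the most adipocyte marker RNA. The 7 adipocyte markers summed to 9.61, 140, 18.4 and 13.6 CPM in anti-LAIR1 replicates 1 to 4, against 8.59, 30.1 and 12.9 CPM in control replicates 1 to 3, so the highest control was again replicate 2. Without anti-LAIR1 replicate 2 the log2 fold change was 0.45 for Pi16 and -0.27 for Dpt. The Dpt estimate was also -0.06 without control replicate 1 and 0.84 without control replicate 2. The part of adipose tissue in these levels was not tested.

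Cd34, a sialomucin of endothelium, blood progenitors and resting fibroblasts (chromosome 1, 194938819 to 194961279), stood at 12.4, 18.4, 15.4 and 19.7 CPM in anti-LAIR1 replicates 1 to 4, against 5.98, 12.4 and 15.7 CPM in control replicates 1 to 3. The estimate was 0.56 on the log2 scale, SE 0.31 (edgeR adjusted p = 0.980). It was 0.23 without control replicate 1, the lowest tumour, and 0.85 without control replicate 3, then at an unadjusted p under 0.05. Leaving out replicate 3, the highest control, widens the difference by choice. Endothelial markers (12 genes, 10 higher) summed to 153 to 178 CPM under anti-LAIR1, against 110 to 147 CPM in control tumours, with the lowest sum in control replicate 1. Pecam1, the endothelial adhesion molecule CD31, averaged 36.1 ± 5.40 CPM under anti-LAIR1, against 25.9 ± 5.65 CPM in control tumours (SD, n = 4 and 3), differing by 0.49 on the log2 scale (SE 0.17, adjusted p from edgeR 0.933). The share of endothelium in the Cd34 level was not tested.

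**Figure D3:**
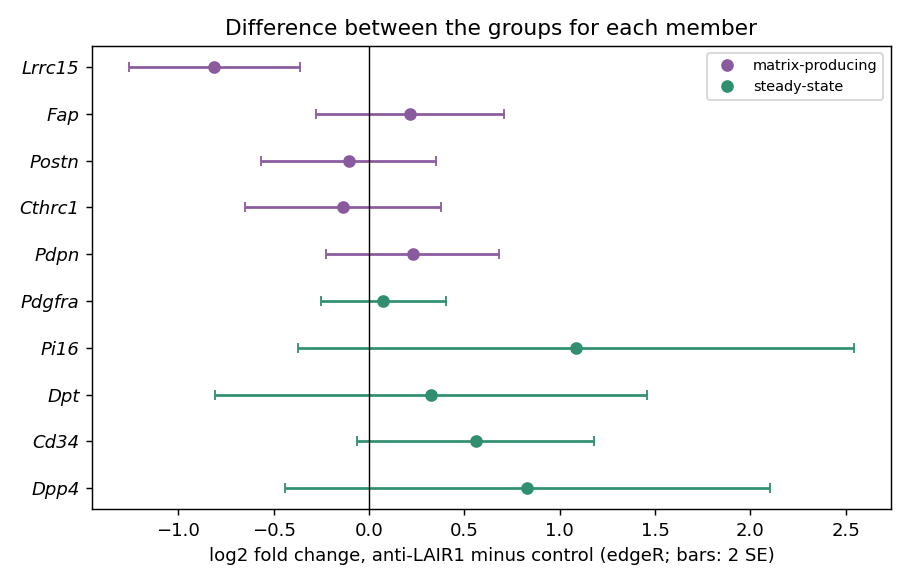
Log2 fold change, anti-LAIR1 minus control, of each member from the edgeR fit, with bars of 2 SEs either side. The Lrrc15 bar, -1.26 to -0.36, leaves out 0, and the bars of the other 9 members include it. The SEs are derived from the edgeR F statistic, so the bars restate the unadjusted test. The edgeR adjusted p of Lrrc15 was 0.753.

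Per kilobase of merged exons, Postn was the most abundant member and Lrrc15 the second in both groups. The Postn level was 44.4 ± 14.2 CPM per kb with anti-LAIR1 and 47.7 ± 1.70 CPM per kb in controls (SD, n = 4 and 3). The Lrrc15 level was 6.41 ± 1.83 CPM per kb with anti-LAIR1 and 11.3 ± 1.64 CPM per kb in controls. In controls Lrrc15 was set apart from the next 3 genes, Cthrc1, Pdpn and Pdgfra, at 4.34 to 4.65 CPM per kb, whereas with anti-LAIR1 its range overlapped those of all 3. Those genes overlapped one another in both groups. Dpt, Cd34 and Fap followed, and Pi16 and Dpp4 overlapped at the lower end, at 0.519 and 0.479 CPM per kb with anti-LAIR1 and 0.248 and 0.269 CPM per kb in controls.

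**Figure D4:**
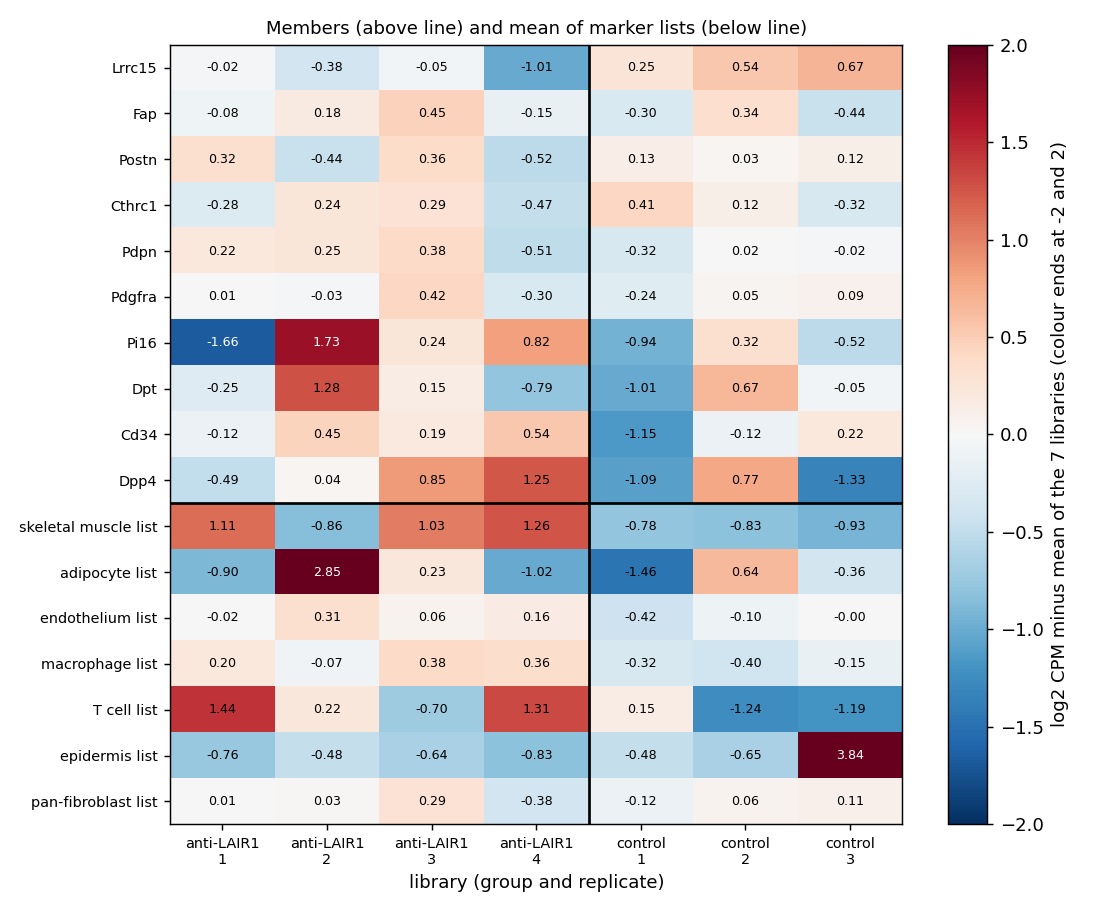
Log2 CPM of each member (above the line) and mean log2 CPM of marker lists (below it) in 7 tumours, each row centred on its mean over the tumours; colours end at -2 and 2. Anti-LAIR1 replicate 2 is high in Pi16 (1.73), Dpt (1.28) and the adipocyte list (2.85), and anti-LAIR1 replicate 4 is low in Lrrc15 (-1.01).

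No single tumour was high or low in all members. Anti-LAIR1 replicate 3 was the highest of the 7 for Fap, Postn, Pdpn and Pdgfra, and anti-LAIR1 replicate 4 was the lowest for Lrrc15, Postn, Cthrc1, Pdpn and Pdgfra while being the highest for Cd34 and Dpp4. Its pan-fibroblast sum, 2283 CPM, was the lowest of the series, against 2939 to 3505 CPM in controls. Among 12320 other genes, those whose centred log2 profile over the 7 libraries lay closest to Lrrc15 were Acat3, Prrg1 and Dlgap1, with root-mean-square differences of 0.13, 0.16 and 0.24, against a median of 0.55. The genes closest to Dpt, likewise low by choice, were Ctsk, Steap4 and Adamts5, at 0.25, 0.27 and 0.31, against a median of 0.76. Ctsk encodes the collagen-degrading protease cathepsin K, Steap4 a metalloreductase and Adamts5 a proteoglycan-cleaving protease.

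Of 22 other listed genes of the matrix-producing state 20 were tested, and 14 had lower and 6 higher estimates, with 0 called by edgeR and a median of -0.15, against -0.003 over all genes tested, of which 50.9% lay below 0. At an unadjusted p under 0.05 there were 3 on the lower side and 0 on the higher, where 1.63% and 3.51% of all genes tested lay. Col12a1 averaged 411 ± 120 CPM under anti-LAIR1, against 603 ± 70.2 CPM in control tumours, without overlap. Adam12, a membrane protease of activated fibroblasts, had a log2 fold change of -0.55 (SE 0.21). Col11a1, a minor fibrillar collagen, had one of -1.05 (SE 0.42) at 2.10 ± 0.55 CPM under anti-LAIR1, against 4.44 ± 2.32 CPM in control tumours. The groups overlapped for Adam12 and for Col11a1. The highest estimates of the list were 0.42 for Aspn and 0.37 for Grem1. Acta2, the smooth muscle actin of contractile fibroblasts, averaged 22.9 ± 4.68 CPM under anti-LAIR1, against 24.7 ± 6.57 CPM in control tumours.

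Of 13 tested genes of the TGF-beta pathway, 11 had lower estimates, where 50.9% of all genes tested lay below 0. The median was -0.15, and 0 were called, as over all genes tested. The 2 higher estimates were 0.20 for Tgfbi and 0.03 for Ltbp1. Tgfb1, the main ligand, averaged 105 ± 20.2 CPM under anti-LAIR1, against 117 ± 10.4 CPM in control tumours (log2 fold change -0.16, SE 0.15). Ltbp2, a matrix protein related to the TGF-beta binding proteins, had the smallest p of the list, with 38.4 ± 7.36 CPM under anti-LAIR1, against 50.3 ± 13.0 CPM in control tumours (edgeR adjusted p = 0.980). Tgfb2 was the 1 gene of the list without overlap, at 19.2 ± 4.04 CPM under anti-LAIR1, against 23.6 ± 0.63 CPM in control tumours. Over all genes tested, 2.51% did not overlap on the lower side.

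Of 15 other steady-state genes tested, 10 lay above 0 and 5 below, with a median of 0.09 and 0 called by edgeR. Cd55, a complement-regulating surface protein also found on blood and epithelial cells, averaged 8.98 ± 1.30 CPM under anti-LAIR1, against 4.36 ± 0.43 CPM in control tumours without overlap. The estimate was 1.05 on the log2 scale, SE 0.19 (edgeR adjusted p = 0.593), and DESeq2 called it with an adjusted p of 0.00601. Inflammatory fibroblast genes were split, 8 higher and 7 lower of 15 tested, with a median of 0.03. Among them Cxcl12, a chemokine of stromal cells, stood at 13.2 ± 8.54 CPM under anti-LAIR1, against 3.96 ± 2.54 CPM in control tumours. Its log2 fold change was 1.80, SE 0.75 (edgeR adjusted p = 0.966). Lif, a cytokine of the interleukin 6 family, stood at 38.3 ± 6.34 CPM under anti-LAIR1, against 52.4 ± 12.7 CPM in control tumours. The groups overlapped for both genes. Of 13 tested ligands and partners of the members, 5 were higher and 8 lower, with a median of -0.02.

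**Figure D5:**
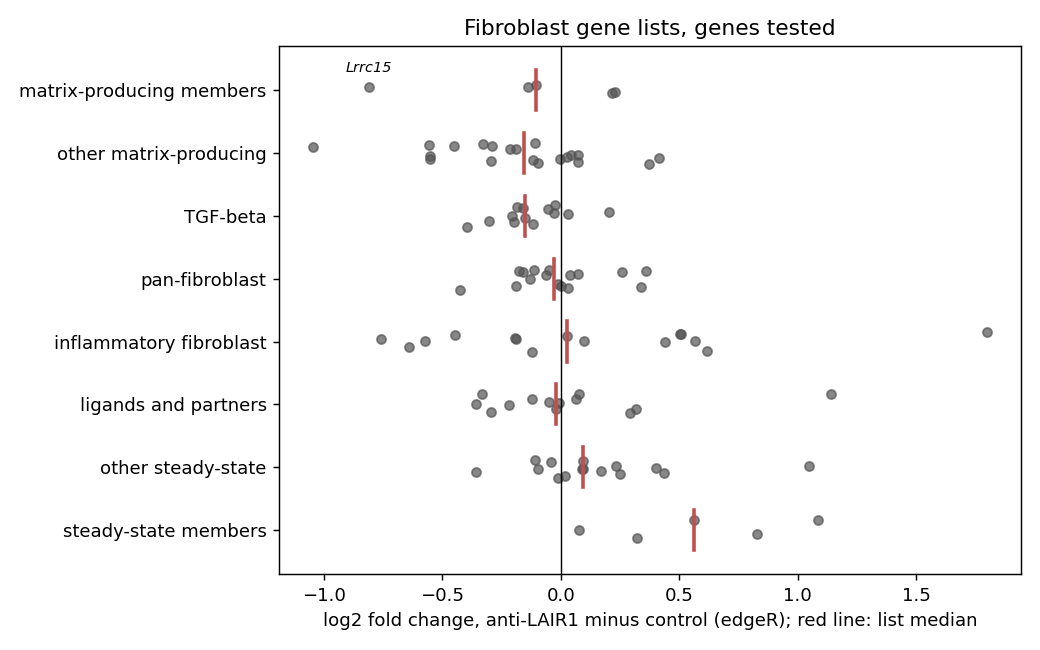
Log2 fold changes, anti-LAIR1 minus control, of the tested genes in 8 fibroblast gene lists, 1 point per gene, with the list median in red. Lrrc15, at -0.81, lies far to the left of the other 4 matrix-producing members, and the medians of the other lists lie between -0.15 and 0.09 apart from the steady-state members at 0.56.

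Markers of further cell types were read in the same way. Of the 8 T cell markers 6 were tested, and all 6 had higher estimates, with 0 called by edgeR and 2 at an unadjusted p under 0.05. Pericyte markers summed to 90.8 to 123 CPM under anti-LAIR1, against 88.7 to 96.1 CPM in control tumours. Of the 7 pericyte markers tested, 4 had higher and 3 lower estimates. Mesothelial markers summed to 1174 to 1569 CPM under anti-LAIR1, against 1287 to 1567 CPM in control tumours. Nearly all of these sums was Msln and Krt19. Msln averaged 649 CPM under anti-LAIR1, against 796 CPM in control tumours, and Krt19 averaged 646 and 584 CPM. Krt19 is also counted in the epithelial list, so the sums do not measure mesothelium alone. Lymphatic endothelial markers, of which 2 of 6 passed the filter, summed to 24.6 to 66.3 CPM under anti-LAIR1, against 36.2 to 42.6 CPM in control tumours. Most of these sums was Flt4, averaging 35.1 CPM under anti-LAIR1, against 35.6 CPM in control tumours. Lyve1 averaged 2.80 and 2.44 CPM. Epidermal markers summed to 12.9 to 24.6 CPM in the anti-LAIR1 tumours, against 34.7, 24.6 and 133 CPM in control replicates 1 to 3. Control replicate 3 also had the highest Lrrc15 level, and without it the Lrrc15 log2 fold change was -0.72 (edgeR adjusted p = 0.908).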

How the data were processed

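Raw counts were deposited by the authors as a single table of 24421 gene symbols by 7 tumours. Per the labels' protocols, directional polyA libraries were sequenced as single reads of 100 bases. The submitters' processing notes name mm10, featureCounts 2.0.1, STAR 2.7.6, edgeR 3.40.1 and Trim Galore. For the annotation and strand setting, nothing is stated there; GENCODE M21 lists antisense genes at Cd34, Dpp4, Dpt, Pi16 and Pdgfra, whose counts could include such reads.

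Counts were used as deposited in R 4.3.3 with edgeR 4.0.16: filterByExpr (minimum count 10), TMM, the robust quasi-likelihood test of 4 anti-LAIR1 against 3 control libraries with no covariate, and Benjamini-Hochberg adjustment over 13545 genes at 0.05. CPM use TMM-scaled totals of tested genes, log2 CPM a prior count of 2, and a list's level is its sum of CPM or mean log2 CPM. Each edgeR SE is the absolute log2 fold change divided by the square root of the quasi-likelihood F statistic. DESeq2 1.42.0, limma 3.58.1, 2 other scalings, 2 other filters, 2 covariates, an exact permutation test and leaving out each library were alternatives. The code was tested on simulated counts. Replicates were numbered in accession order.

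Exon lengths and coordinates come from GENCODE M21 on GRCm38, the assembly that mm10 names, and promoters from RefSeq, in which 8 of 10 members matched. The members and the 19 gene lists were chosen with earlier results of these data known. Named genes were the members, per list those past the threshold or otherwise the smallest p, Acta2, Col1a1, Tgfb1, Pdgfrb, Pecam1 and Pdgfa, and the 3 genes most like Lrrc15 and Dpt; Adam12, Col11a1, Tgfb2 and Cxcl12 were chosen after their values were seen. Figures used matplotlib 3.10.9.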

Additional observations from a re-analysis of the deposited data

Results flagged for a closer look

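Dixon's test at its 95% level was applied to the 4 anti-LAIR1 values of each of 39 named genes, where chance flags about 1 in 20 groups, and 2 genes were marked. Cd55 stood at 7.05 CPM in anti-LAIR1 replicate 4, below the 9.38 CPM of the next library. Prrg1, the gene whose profile was second closest to that of Lrrc15, stood at 8.43 CPM in the same replicate, below the next value of 16.2 CPM. Because Prrg1 was named for its likeness to Lrrc15, its low value in that replicate follows from the choice and is not independent of Lrrc15. That replicate was also the lowest of all 7 libraries for Lrrc15 and for the pan-fibroblast sum. None of the 10 members was marked.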

How the results depend on the processing

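The 10 members gave 160 fold changes under 16 alternatives, of which 152 kept their direction and 8 reversed. In all 16 alternatives 0 members were called. For the exact permutation test this says nothing, because its smallest possible p, 0.0286, could hardly pass adjustment over 13545 genes. The Lrrc15 log2 fold change stayed between -0.93 and -0.64, with adjusted p from 0.0686 to 1.00. The count of genes called was 0 with edgeR and 54 with DESeq2, and ran from 0 to 3 when single libraries were left out, 3 being without anti-LAIR1 replicate 2; the cause was not tested. Log2 fold changes that reversed when 1 library was left out ranged from -0.25 to 0.029 for Postn, from -0.30 to 0.055 for Cthrc1, from -0.070 to 0.17 for Pdgfra, from -0.27 to 0.84 for Dpt and from -0.0082 to 0.55 for Lyve1. Further such ranges ran from -0.065 to 0.54 for Sftpb, from -0.28 to 0.099 for Acta2, from -0.074 to 0.11 for Pdgfrb, from -0.093 to 0.20 for Pdgfa, from -0.26 to 0.65 for Ctsk, from -0.15 to 1.02 for Steap4 and from -0.11 to 0.76 for Adamts5. In the exact permutation test the sign reversed for Lyve1 (-0.057). With limma-voom the sign reversed for Pdgfa (-0.076) and Ctsk (-0.048). With the muscle level as a covariate the sign reversed for Cthrc1 (0.14), Sftpb (-0.37), Tgfb1 (0.14) and Pdgfa (-0.11). The 5 steady-state members were all above 0 in the main analysis, 4 of 5 without anti-LAIR1 replicate 2 or replicate 3, and 3 of 5 without control replicate 1. No paired analysis was possible because the labels give mouse names and no shared replicate numbers. Depth limits Pi16 and Dpp4 most, with 8 and 7 reads in their lowest libraries.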
